A study of Mus musculus with 4 samples.

Results

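Peaks of trimethylated lysine 36 of histone H3 (H3K36me3) that lay on single-exon transcripts were examined in mouse forebrain progenitors. The members were all peaks that the authors' annotation table places in "exon 1 of 1", which is the only exon of an unspliced transcript, joined to the peak lists by position. They numbered 215 of 36820 peaks in the wild-type (WT) library and 460 of 95750 peaks in the knockout (cKO) library. The choice used the annotation only and no measured value. The WT group was brain of C57BL/6 embryos at E13 with the wild-type genotype, and the cKO group was brain of C57BL/6 embryos at E13 with a brain-specific loss of H2A.z1 (labelled H2A.z1cKO). Both groups were labelled as neural progenitor cells from the forebrain. The labels name neither the driver of the deletion nor the number of embryos behind a library. Each genotype had 1 ChIP library and 1 input library, so every contrast between WT and cKO is between 2 libraries, has no replicate error and no test. Ranges in brackets are 95% binomial intervals by the exact Clopper-Pearson method, which reflect counting error alone.

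H3K36me3 is written by SETD2, a methyltransferase that travels with elongating RNA polymerase II, and the mark builds up over the body of transcribed genes rather than at their promoters. Its level over a gene has been linked to splicing, and unspliced genes such as the replication-dependent histones are known for low H3K36me3. Single-exon transcripts come from several sources: ancestral intronless genes such as the Sox and POU transcription factors, functional retrogenes that arose when a spliced messenger RNA was copied back into the genome, processed pseudogenes of the same origin that no longer encode protein, and unspliced transcript models inside ordinary spliced genes.

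Promoter sequence is shown for the 4 intronless genes where a peak reached the start site, because the mark is mostly found downstream of it. The windows ran from 250 bases before to 50 bases after the RefSeq start (GRCm38.p6, the assembly with the chromosomes of mm10). Of 203 intronless genes examined, 164 had a window that was used, and 1 of their 169 windows was touched by a WT peak and 4 by a cKO peak. Among all 32851 RefSeq windows, 0.338% were touched in WT and 1.26% in cKO. The upstream 250 bases are printed 5′ to 3′ on the strand of the gene, at chr2:152686898-152687147 (plus strand) for Mcts2, chr5:121521696-121521945 (minus) for Adam1a, chr1:175688354-175688603 (minus) for Chml and chr16:17898387-17898636 (plus) for Tssk2. Capitals mark the motif CCAAT, which reads as its reverse complement where it lies on the opposite strand.
Mcts2: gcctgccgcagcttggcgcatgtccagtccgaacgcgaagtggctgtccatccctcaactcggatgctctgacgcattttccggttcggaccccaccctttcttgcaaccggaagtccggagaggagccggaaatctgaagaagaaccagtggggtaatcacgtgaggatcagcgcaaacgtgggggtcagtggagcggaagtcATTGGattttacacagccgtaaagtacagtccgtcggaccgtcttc
Adam1a: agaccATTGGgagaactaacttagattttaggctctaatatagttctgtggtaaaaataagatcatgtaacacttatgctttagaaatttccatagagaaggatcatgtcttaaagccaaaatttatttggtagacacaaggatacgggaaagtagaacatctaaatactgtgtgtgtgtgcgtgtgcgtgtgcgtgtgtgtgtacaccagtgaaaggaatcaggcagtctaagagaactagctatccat
Chml: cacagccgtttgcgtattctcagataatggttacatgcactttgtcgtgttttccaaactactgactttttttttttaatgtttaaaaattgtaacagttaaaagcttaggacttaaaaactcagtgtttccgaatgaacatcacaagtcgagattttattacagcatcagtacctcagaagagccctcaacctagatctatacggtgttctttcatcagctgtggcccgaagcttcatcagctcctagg
Tssk2: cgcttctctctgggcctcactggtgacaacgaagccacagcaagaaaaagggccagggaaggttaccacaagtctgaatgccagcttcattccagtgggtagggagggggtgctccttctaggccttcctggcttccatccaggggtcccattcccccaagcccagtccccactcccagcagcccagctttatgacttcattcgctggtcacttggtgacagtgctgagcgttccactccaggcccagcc

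Both strands of these 250 bases were searched for the TATA box written as TATAAA, for the letters CCAAT of the box of that name, and for the GC box written as GGGCGG. The TATA and GC boxes were found in none of the 4 windows, and the CCAAT box was found once in Mcts2 and once in Adam1a. Over all 32851 windows of this length, the TATA box stood in 12.4%, the CCAAT box in 33.8% and the GC box in 32.7%. Mcts2 held 20 CG dinucleotides, Chml 7, Adam1a 4 and Tssk2 4, beside a median of 6 over all windows. A match of letters is a description and not a binding site. Mcts2, an imprinted retrogene that lies inside the spliced gene H13, had all 300 bases of its window under a peak in both libraries. Adam1a, which encodes a sperm surface protein, had all 300 bases under an exon 1 of 1 peak in cKO and none in WT. For Chml, a Rab escort protein gene inside Opn3, 104 bases lay under an exon 1 of 1 peak in cKO and none in WT. The whole window of Tssk2, a testis-specific kinase gene, lay under a cKO peak of another class.

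Sequencing depth was similar, at 31984670 ChIP tags in WT and 32927164 in cKO, against input depths of 38500353 and 35026817 tags. The label of neural progenitors was set beside marker genes by the presence of a peak over the gene body. Among all 21778 coding genes, 31.5% had a peak in WT and 43.9% in cKO. Of 10 progenitor markers, 8 had a peak in WT and 9 in cKO, with Fabp7 at 0 in both. For postmitotic neurons 2 of 7 markers had one in WT and 3 in cKO, and Dcx and Neurod1 were at 0 in both. None of the 6 blood and 4 endothelial markers had a peak in either library. Of 3 microglia markers, Csf1r had 7.02% of its body covered in cKO and none in WT.

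The first question was what kinds of transcript the single-exon peaks marked. Pseudogenes were the most frequent kind, with 124 of 215 peaks (57.7%) in WT and 261 of 460 (56.7%) in cKO. Intronless protein-coding genes whose name was paired with the transcript held 32 peaks on 23 genes in WT and 53 peaks on 38 genes in cKO. A further 13 WT and 40 cKO peaks lay on unspliced transcript models that carry the name of a multi-exon coding gene. Predicted coding genes held 1 and 13 peaks and noncoding RNAs 4 and 6. The name had no RefSeq match for 24 and 48 peaks, and for 17 WT and 39 cKO peaks the transcript could not be paired with a gene name. The peaks fell on 191 transcripts in WT and 396 in cKO, of which 143 carried a peak in both libraries, 48 in WT alone and 253 in cKO alone. The split into intronless and multi-exon coding genes came from general knowledge of the genes and from the exon numbers in the annotation tables.

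Many of these transcripts sat inside larger genes. In WT, 88 of 215 peaks (40.9%, interval 34.3 to 47.8%) overlapped another protein-coding gene, and in cKO 165 of 460 did (35.9%, interval 31.5 to 40.4%). The surrounding gene carried further peaks outside the member peaks in 59 of the 88 WT cases and in 132 of the 165 cKO cases. Of all 21778 coding genes, 31.5% had a peak of any class in WT and 43.9% in cKO, a share that counts genes and not peaks. Names without a RefSeq match were inside another coding gene in 19 of 24 cases in WT and 35 of 48 in cKO. Intronless coding genes were nested in 6 of 32 WT peaks and 11 of 53 cKO peaks, and none of the 5 WT hosts had a further peak. The nested counts include 2 WT and 9 cKO peaks whose transcript was not paired with a name, among them those over Sox1 and Purb, so a peak on a gene's own transcript can be counted there as nested. For nested transcripts whose host was marked, the peak cannot be assigned to either gene, since ChIP signal carries no strand.

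**Figure D1:**
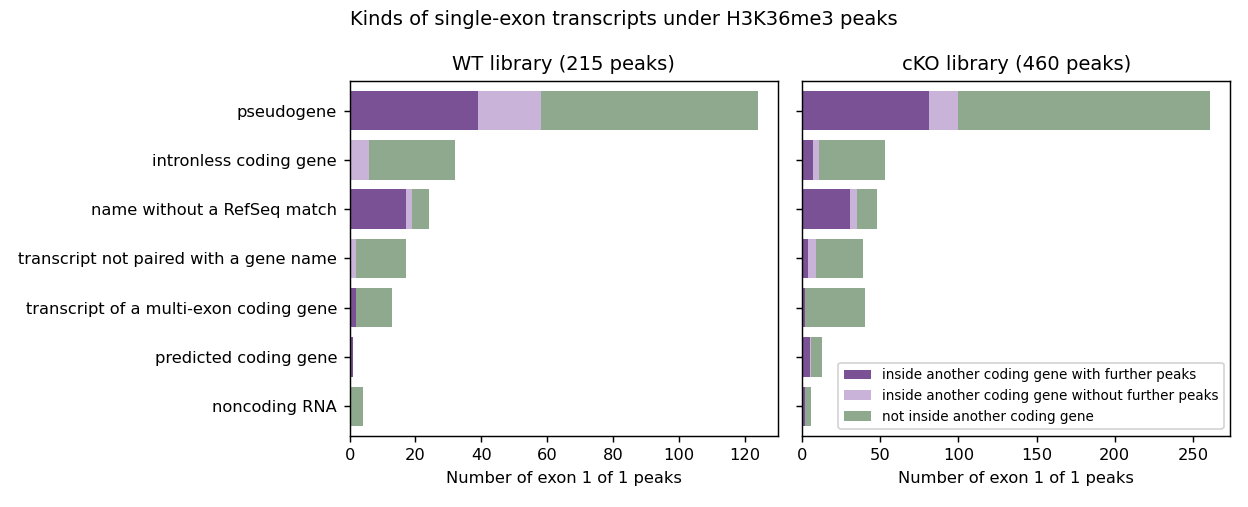
Number of exon 1 of 1 peaks (horizontal axis) by kind of transcript in the WT (left) and cKO (right) libraries, each with its own axis range; colours show whether the peak lay inside another coding gene and whether that gene had further peaks. Pseudogenes form the longest bar in each library, with 124 peaks in WT and 261 in cKO.

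Pseudogenes were marked both inside genes and far from them. In WT 58 of the 124 pseudogene peaks were nested in a coding gene and 66 were not, and in cKO the counts were 100 and 161. Of all 10335 RefSeq pseudogenes, marked or not, 21.3% overlapped a coding gene. The peaks outside coding genes were isolated: 72.7% of them in WT and 49.1% in cKO lay over 10 kb from any other peak of the same list. Of the pseudogene peaks that lay on the RefSeq span, 117 of 123 in WT and 226 of 258 in cKO were wholly inside it. This may be shaped by the choice of members, since a peak near a start or end can be given the promoter or transcript-end class. Among all 10335 RefSeq pseudogenes, 4.21% carried a peak of any class in WT and 9.22% in cKO. The share was 8.64% and 19.8% for those overlapping a coding gene, and 3.01% and 6.37% for those outside. A processed pseudogene can be nearly identical to its parent. The file headers name the alignments as unique, but this name does not show how reads from near-identical copies were placed. How much of the pseudogene signal this placement affects was not tested.

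The strongest WT single-exon peaks included several pseudogenes. Gm15725, inside the gene Lrrc58, had the largest −log10 q of the WT members at 44.8, with 53 extended tags at the summit (pileup) and a fold enrichment of 15.0. Its peak at chr16:37882500-37883638 covered 63.6% of the 1792 bp pseudogene, and the overlapping cKO peak measured 2401 bp and was classed as promoter. Lrrc58 had no other peak in WT and 6 others in cKO. Gm1821 is Ubb-ps in RefSeq, a pseudogene named for the ubiquitin gene Ubb, and its WT peak covered 717 bp, 77.0% of its length, with −log10 q 33.4. The cKO peak there had 679 bp and covered 72.9%. The nearest other peak was 526287 bp away in WT and 56290 bp away in cKO, so this pseudogene stood alone in both libraries.

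Of the 169 cKO members that a WT peak overlapped, 23 spanned 2 or more WT peaks, and several of these were pseudogenes. Gm7324 carried WT peaks of 435 and 373 bp, 306 bp apart, and a single cKO peak of 1318 bp that covered 80.5% of its 1637 bp. Vcp-rs, a copy of the gene for the ATPase VCP on the X chromosome, held the widest WT member at 1584 bp with a second peak of 639 bp, and a cKO peak of 2824 bp covering 87.2% of it. Gm5903 had 3 WT peaks of 161 to 362 bp and a cKO peak of 2519 bp across all of them. Gm15953, inside the marked gene Timmdc1, had a WT peak of 1359 bp and a cKO peak of 2419 bp, which ran past the pseudogene so that 81.6% of the peak was inside it. On Gm13050 (Eef2-ps2 in RefSeq, named for the elongation factor gene Eef2) the peaks were closer in size, at 1190 bp in WT and 1391 bp in cKO.

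Pseudogene symbols often carry the name of the parent gene. Of 261 pseudogene names in either library, 38 gave a parent, 35 of these matched a coding gene by symbol or synonym, and 15 of the 38 named a ribosomal protein. The matches stood for 32 distinct parents, of which 31 had a peak in WT and 32 in cKO. The one without a WT peak was the match of Tes3-ps, which rests on a synonym of Dcun1d1 and is less sure than a match by symbol. Over all 21778 coding genes, 31.5% had a WT peak and 43.9% a cKO peak. Vcp itself had 12 WT and 5 cKO peaks, and Mdm4 had 3 and 24. These parents were reached through the names of the peaks, so the counts are a description without a test. Mdm4-ps, on the X chromosome, had 1 WT and 4 cKO peaks assigned to it, and 2 of the 4 cKO peaks lay on its RefSeq span.

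Intronless protein-coding genes with an exon 1 of 1 peak under their own paired name numbered 40, of which 23 had such a peak in WT, 38 in cKO and 21 in both. Sox1 and Purb, whose exon 1 of 1 peaks were listed under other names, are described with their gene lists and are not among the 40. Since a peak put each gene into this set, the coverage values that follow describe the genes and support nothing by their number. Coverage is the share of the gene body inside peaks of any class. Its median over the 40 genes was 8.85% in WT and 26.9% in cKO, and coverage was higher in cKO by at least 10 percentage points for 23 genes and lower by as much for 0. Of all 21778 coding genes, 28.1% were higher and 0.0138% lower by 10 points, and of the 4977 coding genes under 5 kb, 12.8% and 0.0603%. Coverage was lower in cKO by any amount for 3 of the 40 genes, beside 0.735% of all coding genes and 0.482% of those under 5 kb. The wider sets include genes without a peak in either library, which cannot differ, so these shares are not like for like. Of all coding genes, 160 were lower and 9510 higher by any amount, and of those under 5 kb, 24 and 777.

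Among intronless transcription factor genes, Pou3f3 carried the strongest WT peak. Pou3f3 encodes a POU factor of cortical progenitors and upper-layer neurons. Its WT peaks at chr1:42697849-42698673 and chr1:42698827-42699799 had pileups of 37 and 27, folds of 10.6 and 7.78 and −log10 q of 25.3 and 14.8, and they were 153 bp apart. In cKO a single peak of 2011 bp spanned both, with pileup 46 and fold 6.20, and a further peak was classed as promoter. Coverage of Pou3f3 was 40.5% in WT, the highest of the 40 genes in that library, and 49.7% in cKO. Zbtb18, a transcriptional repressor needed for cortical neuron development, had 1 peak in each library, of 1282 bp in WT and 1227 bp in cKO, with coverage of 15.2% and 14.6%. Their −log10 q was 20.9 in WT and 39.9 in cKO, each within its own list. No other peak lay within 318586 bp in WT or 315258 bp in cKO.

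SoxB and SoxC factors, which maintain progenitors or promote neuronal differentiation, were marked in 5 of 8 genes in each library. Among coding genes under 5 kb, 9.26% were marked in WT and 15.9% in cKO. The median length was 3917.5 bp for the 8 Sox genes and 1945 bp for those under 5 kb. With the cKO list cut to the WT number of peaks, only Sox2 and Sox11 of the 8 kept a cKO peak. An exon 1 of 1 peak lay on 2 of the SoxB and SoxC genes in WT and on 3 in cKO. Sox2, the pluripotency and neural stem cell factor, had a peak of 478 bp in WT and 621 bp in cKO at the same place, with coverage of 19.4% and 25.2%. Sox1 had 5.20% and 14.3%, and its single-exon peak was listed under the name Gm25239, whose transcript differs from the one in the class. Coverage of Sox4 was 5.17% in WT and 12.7% in cKO. Sox11, a SoxC factor of immature neurons, had 1 WT peak and 6 cKO peaks, of which 1 was exon 1 of 1, with coverage of 2.60% and 18.6%. Sox12 had a peak in cKO alone, over 4.87% of its body. Sox21 went the other way, at 6.35% in WT and 0% in cKO, through a WT peak of the promoter class. Sox3 and Sox14 had no peak in either library.

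Intronless genes of the Wnt pathway and other signalling genes were marked in part. Fzd8, a Frizzled receptor for Wnt ligands, had 2 exon 1 of 1 peaks in WT, of 169 and 647 bp, and 1 in cKO of 620 bp, and the shorter WT peak had no cKO overlap. Its coverage was 24.4% in WT and 18.5% in cKO, the largest difference toward WT among the 40 genes. Fzd1 and Fzd2 had 0% in WT and 6.35% and 7.33% in cKO. Gas1, a membrane co-receptor for Hedgehog ligands outside the gene lists, had WT peaks of 338 and 347 bp and a single cKO peak of 857 bp, with coverage of 21.9% and 27.4%. Of the 9 Frizzled, Wnt and Notch genes listed, 1 was marked in WT and 3 in cKO, beside 9.26% and 15.9% of coding genes under 5 kb. The median length was 2988 bp for these 9 genes and 1945 bp for those under 5 kb. With the cKO list cut to the WT number of peaks, only Fzd8 of the 3 kept a cKO peak.

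Of the 21 housekeeping and nuclear intronless genes listed, 2 (9.52%) were marked in WT and 7 (33.3%) in cKO, beside 9.26% and 15.9% of coding genes under 5 kb. The median length was 2867 bp for these 21 genes and 1945 bp for those under 5 kb. With the cKO list cut to the WT number of peaks, none of the 7 kept a cKO peak. The matching share of short genes after this cut was not tested. Hnrnpa0, an RNA-binding protein gene, had 0% in WT and 14.9% in cKO through 2 exon 1 of 1 peaks. Cenpb, which encodes a centromere-binding protein, had 7.45% and 10.1%, with an exon 1 of 1 peak in WT and a peak of the transcript-end class in cKO. Purb, a gene for a DNA- and RNA-binding protein, had a cKO peak listed under the name Gm22123, over 2.70% of its body. Zfp830, Tigd5 and Yy2 had no WT peak and 12.3%, 35.97% and 20.1% in cKO, none of it from exon 1 of 1 peaks.

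Zxdb, a zinc finger gene on the X chromosome, had 2 WT peaks and 1 cKO peak of 1029 bp, with coverage of 8.84% and 18.3%. Its neighbour in name, Zxda, which RefSeq lists as a transcribed pseudogene, had a WT peak with the same width (192 bp), pileup (19) and fold (5.12) as a Zxdb peak. In cKO both carried a peak of 1029 bp with pileup 34, and folds of 4.11 for Zxdb and 3.70 for Zxda. This pair was singled out after its values were seen, and the 2 copies are reported as uncertain because reads may be shared between them.

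The highest cKO coverage among the 40 genes was on genes outside the lists, named here after their values were seen. Gpr151, an orphan receptor gene, had 0% in WT and 77.3% in cKO. Tssk2 had 11.2% and 74.7%, and Adam1a had 15.7% and 63.1%. For Rbm15b, which encodes an RNA-binding partner of the m6A writer complex, the values were 35.2% and 69.6%. Fem1a, a substrate receptor of a ubiquitin ligase, had 3 exon 1 of 1 peaks in each library, of 214 to 677 bp in WT and up to 3023 bp in cKO, with coverage of 16.4% and 66.9%. Rtl6, a gene derived from a retrotransposon and listed as Ldoc1l, had 0% and 46.6%. Beside Fzd8, coverage was lower in cKO for Fbxl14, at 12.5% in WT and 9.67% in cKO, and for Zbtb18.

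**Figure D2:**
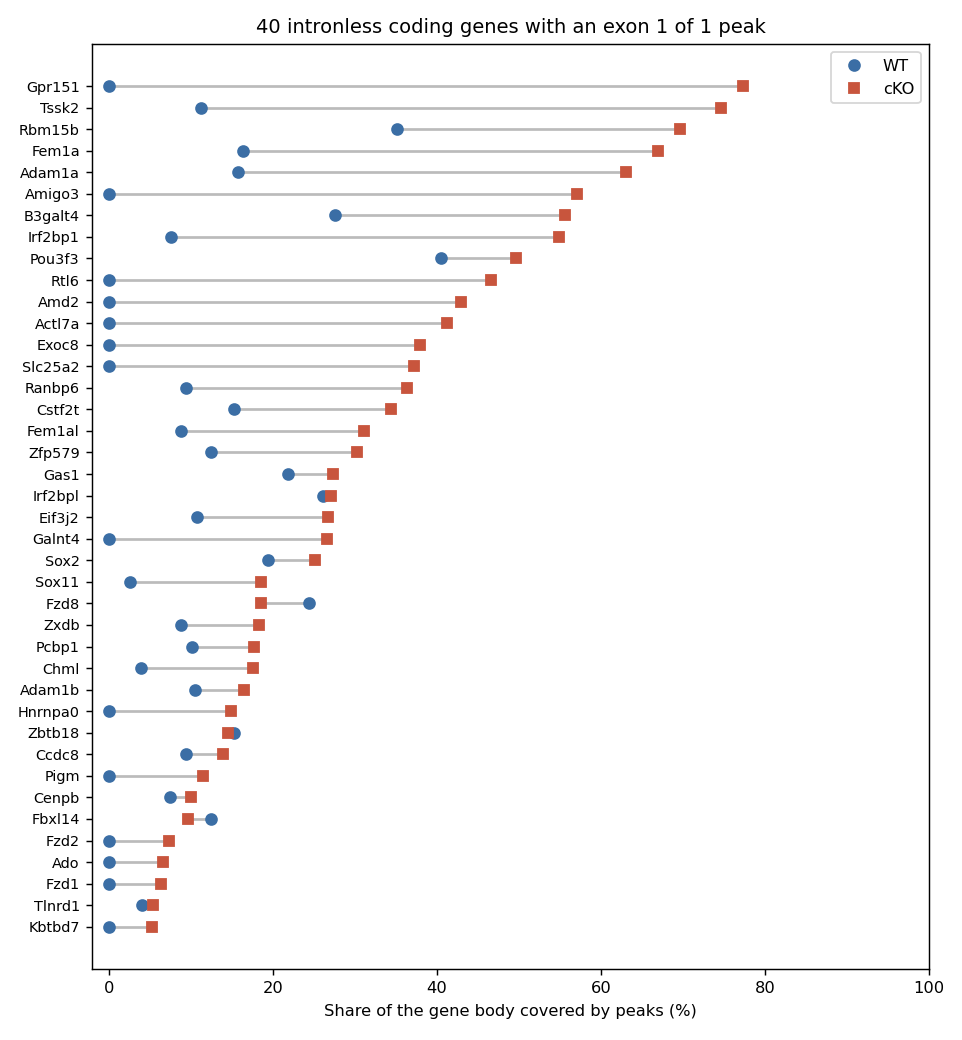
Share of the gene body covered by peaks (horizontal axis, percent) for the 40 intronless coding genes with an exon 1 of 1 peak, in WT (circles) and cKO (squares), ordered by the cKO value. The circle lies to the right of the square for Fzd8, Fbxl14 and Zbtb18, and 14 genes lie at 0% in WT.

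Of these 40 genes, 8 lay inside another coding gene. They were Adam1b in Tmem116, Amigo3 in Rnf123, Chml in Opn3, Cstf2t in Prkg1, Fbxl14 in Wnt5b, Fem1al in Eml6, Galnt4 in Poc1b and Slc25a2 in Gm37013. Cstf2t, a retrogene for a polyadenylation factor, had 2 WT peaks and 1 cKO peak, with coverage of 15.2% and 34.5%. Chml had 1 WT peak of 243 bp and 3 cKO peaks of 317 to 472 bp, with coverage of 3.97% and 17.6%. Amigo3 and Galnt4 had no WT peak and 57.1% and 26.7% in cKO.

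Over 12 lists of intronless genes and retrogenes assembled from general knowledge, with 172 genes, 13 genes (7.56%) had a peak of any class over the body in WT and 20 (11.6%) in cKO. The same shares were 9.26% and 15.9% among coding genes under 5 kb. The lists are not limited to such genes, with Sox11 at 8451 bp and the noncoding Neat1 at 20773 bp, so the shares are not like for like. The histone genes made up 69 of the 172, and without them, a split made after the values were seen, the shares were 13 of 103 (12.6%) in WT and 20 of 103 (19.4%) in cKO. The higher cKO count did not hold when the cKO list was shortened: 7 genes were marked at the WT number of peaks and 2 at the WT covered length. No peak in either library lay over any of the 69 histone genes, the replication-dependent genes and single-exon variants. Their median length was 493 bp, beside 1945 bp for coding genes under 5 kb, although some spans were long, such as H2bc6 at 37455 bp. The share marked among genes of like length was not tested. The 7 bHLH factors, 4 claudins and 11 other brain genes were likewise unmarked in both. Of 13 AP-1, immediate-early, Cebp and Maf genes only Jun was, at 12.6% and 13.6%. Of 4 POU class 3 genes only Pou3f3 was. In total 151 of the 172 genes were at 0 in both libraries.

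Of the 172 genes, 7 (4.07%) were higher in cKO by at least 10 points, beside 12.8% of coding genes under 5 kb and 28.1% of all coding genes. None was lower by as much, and the median difference was 0 points. The 7 were Mcts2, Tigd5, Malat1, Yy2, Sox11, Hnrnpa0 and Zfp830. Mcts2 had 48.3% and 85.0%, from peaks of the promoter and transcript-end classes, so it is no exon 1 of 1 member. It lies inside H13, and ChIP signal carries no strand, so its peaks may belong to either gene. Nesting was not examined for all of the listed genes. Malat1, a nuclear long noncoding RNA, had 25.9% and 58.6%, and Neat1 had no peak. When the cKO list was cut to the number of peaks of the WT list, keeping the smallest p-values, 2 genes were higher by 10 points and 1 was lower. When it was cut to the covered length of the WT list, 1 was higher (Malat1) and 5 were lower.

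**Figure D3:**
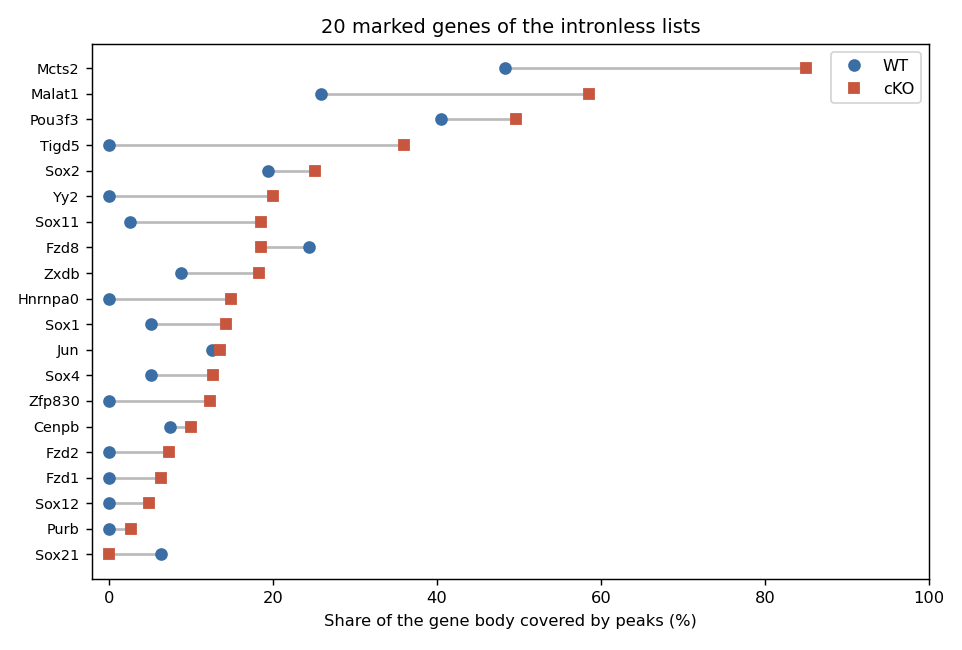
Share of the gene body covered by peaks (horizontal axis, percent) in WT (circles) and cKO (squares) for 20 of the 21 listed intronless genes that had a peak in either library. Mcts2 and Malat1 have the highest cKO values at 85.0% and 58.6%, and of the genes shown only Fzd8 and Sox21 have a WT value above the cKO value. Mcts2 lies inside H13, so its peaks may belong to either gene.

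The class "exon 1 of 1" held only part of the peaks on these genes. Of the 19 WT peaks over listed genes, 9 were exon 1 of 1, 5 promoter, 3 transcript end, 1 exon and 1 intergenic. Of the 34 cKO peaks, 12 were exon 1 of 1, 7 intergenic, 6 transcript end, 5 promoter and 4 exon.

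Peak summits lay toward the middle of intronless genes more often than near their starts. Over those of the 40 genes with a known strand, 20 of 36 WT summits fell in the central stretch when the gene was cut into 3 equal parts, 6 in the first and 10 in the last. In cKO the counts were 26 of 53, 8 and 19. The median position from start to end was 54.6% in WT and 54.5% in cKO. Taken over exon 1 of 1 peaks alone it was 49.8% (30 summits) and 51.7% (42 summits). A peak near a start or end can be given the promoter or transcript-end class, so the classes may limit the positions of exon 1 of 1 peaks. The exact class rule is not known, and exon 1 of 1 cKO peaks did reach the start windows of Adam1a and Chml. The counts over all classes may be shaped by the classes too. Each of these genes was chosen through an exon 1 of 1 peak, and these peaks give most of the summits.

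**Figure D4:**
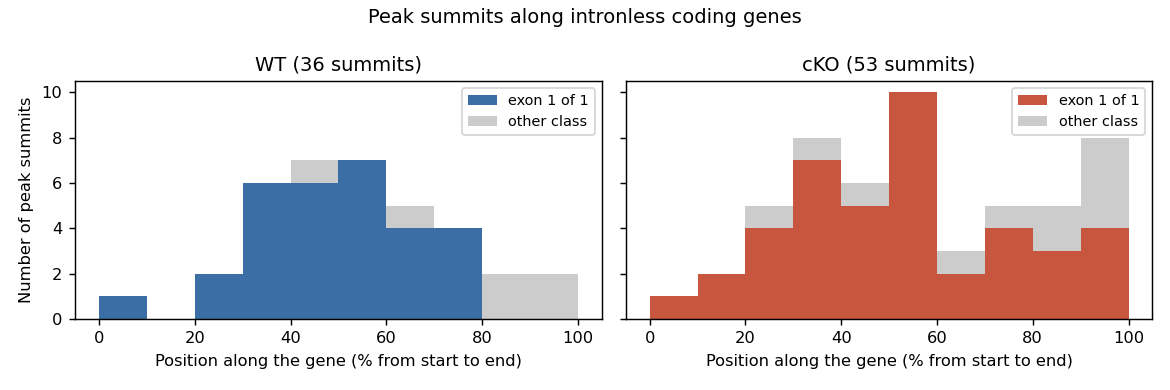
Number of peak summits (vertical axis) by position along the gene in steps of 10% from start to end (horizontal axis) for intronless coding genes with an exon 1 of 1 peak; colour marks exon 1 of 1 peaks and grey other classes. The central of 3 equal parts holds 20 of 36 WT summits and 26 of 53 cKO summits.

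Unspliced transcript models of spliced genes formed a separate group. Rbm25, a splicing regulator gene, had 2 WT and 7 cKO exon 1 of 1 peaks, the most of any name in cKO, on 3 transcript models within its 50920 bp. Smchd1, which encodes a chromatin protein of X inactivation, had 2 and 5, within 130878 bp. The strongest such WT peak lay on Rbm5, another splicing regulator gene, at chr9:107746387-107747567 with −log10 q 28.7 and fold 11.4, and the cKO peak there measured 7114 bp and took the transcript-end class. Pigb, a gene of GPI anchor synthesis, held one of the widest cKO members at 2534 bp, and no WT peak overlapped it. In none of these cases does the peak single out the unspliced model from the spliced gene.

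Of the 5 strongest cKO members, 3 lay inside marked genes. The largest −log10 q, 59.4, belonged to 4932442E05Rik inside the kinase gene Dyrk2, whose peak of 3355 bp at chr10:118859411-118862765 was also the widest. Dyrk2 had 5 further cKO peaks and 3 WT peaks. Gm12488, inside Ttf2, had −log10 q 42.8 and a host with 22 further cKO peaks. Gm15497, inside the zinc finger gene Zfp68, had −log10 q 40.3 and 3005 bp, against 515 bp in WT. Zbtb18 and Gm7324 completed the 5 strongest, and neither was inside another gene.

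The comparison between genotypes asked which single-exon peaks were found in both libraries. Of the 215 WT members, 193 (89.8%, between 84.9 and 93.5%) were overlapped by a cKO peak over 1 bp or more, beside 96% of all WT peaks. The share was 97.6% for first exons of several, 98.4% for internal exons and 97.6% for last exons, whose intervals began at 94.8%, 98.03% and 97.0%. Of the 460 cKO members, 169 (36.7%, between 32.3 and 41.3%) met a WT peak, beside 25.3% of all cKO peaks and 30.2%, 32.9% and 30.4% of the same exon classes. The class itself was not always kept. Of the overlapped WT members, 157 met another exon 1 of 1 peak, 22 a transcript-end peak and 14 a promoter peak. The cKO partner was longer for 177 of the 193, with a median of 791 bp against 296 bp.

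The 22 WT members without cKO overlap were short, with a median of 194 bp. The 5 with the largest −log10 q were Gm2423 (10.9), Gm12141 (9.42), Gm8910 (8.79), Gm10031 (7.75) and Gm8783 (7.63), of 157 to 219 bp. None had another WT peak within 42799 bp, and Gm8783 alone of the 5 lay inside a coding gene, Entpd1. Gm10031, a pseudogene listed as Csnk2a3 in RefSeq, and the transcript listed under Gm12141 each had a cKO peak of the same name elsewhere along their length. Fzd8 and Cenpb were the only intronless coding genes among the 22.

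The size of single-exon peaks was set beside that of their whole list. WT members had a median width of 289 bp and cKO members one of 397 bp, beside 271 and 436 bp over the whole lists. The median fold enrichment was 4.85 in WT, beside 5.00 for all WT peaks, and 4.68 in cKO, beside 5.17. The local background at the summit was recovered from the pileup and the fold. In WT its median was 2.60 tags for both the members and the list, and 3.17 tags for pseudogene members. The 2.60 tags are a floor, equal to ChIP tags times fragment length over the genome size in the header. In cKO this floor was 3.26 tags, so background tags are not like for like across the libraries. The median background in cKO was 4.70 tags for the members and 3.46 for the list, and 5.64 tags for pseudogene members. The part of this background in the cKO counts was not tested.

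Single-exon peaks were more often isolated and more often X-linked than peaks of the other exon classes. In WT 47.4% of them lay over 10 kb from the nearest other peak, against 8.30% of all WT peaks, and in cKO 33.7% against 2.78%. The nearest peak was a median of 7459 bp away in WT, against 711 bp for the list, and 1045.5 bp away in cKO, against 336 bp. On the X chromosome lay 13 of 215 WT members (6.05%, interval 3.26 to 10.1%), beside 0.375% of all WT peaks and 0.409% of internal exon peaks (interval 0.246 to 0.638%). In cKO 31 of 460 members were X-linked (6.74%, interval 4.62 to 9.43%), beside 1.197% of all peaks and 1.58% of internal exon peaks (interval 1.30 to 1.90%). These intervals did not overlap in either library. The intervals treat peaks as separate counts, although several can lie on 1 transcript.

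Pseudogenes made up most of the X-linked members, with 8 of 13 in WT and 27 of 31 in cKO. Of the 10335 RefSeq pseudogenes, 9.76% lie on the X chromosome. Those on the X were marked less often than those elsewhere, at 1.59% (interval 0.909 to 2.56%) against 4.49% (4.08 to 4.93%) in WT and 4.66% (3.44 to 6.15%) against 9.71% (9.12 to 10.3%) in cKO.

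**Figure D5:**
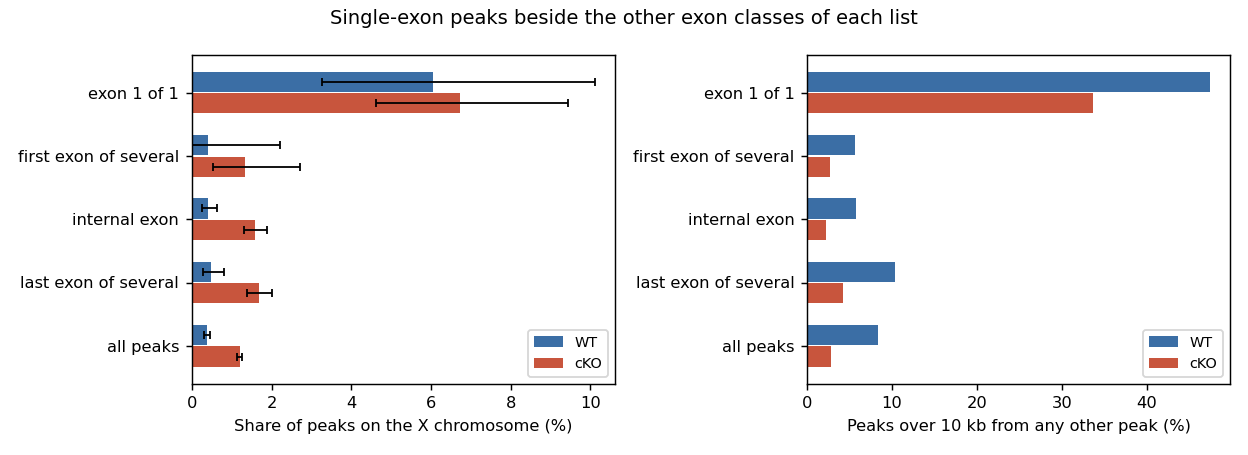
Left, share of peaks on the X chromosome (percent, bars with exact 95% binomial intervals); right, share of peaks over 10 kb from any other peak of the list (percent), by exon class in WT (blue) and cKO (red). The exon 1 of 1 bars are the highest in both panels, at 6.05% and 6.74% on the left and 47.4% and 33.7% on the right.

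Small noncoding RNAs are also single-exon transcripts, and those listed in RefSeq were set against the peaks. Of 1342 of them, 165 lay under a peak of any class in WT and 365 in cKO. An exon 1 of 1 peak covered none of them in WT and 1 in cKO, Scarna6, a guide RNA for the modification of spliceosomal RNA that lies inside the autophagy gene Atg16l1. Members whose name has no RefSeq match, 24 in WT and 48 in cKO, could not be examined in this way. No member carried the name of a microRNA.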

How the data were processed

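The deposited peak lists give, per the file headers, narrow peaks called with MACS 2.1.1.20160309 (2.1.0 per the submitters' processing notes) for 1 ChIP library against its input, with a p cutoff of 1.00e-05 and a fragment length of 152 bp in WT and 185 bp in cKO. Alignment used Bowtie2 2.2.9 and mm10, per the submitters' processing notes. The authors' columns are the pileup signal (extended tags at the summit), the fold ratio over local input, and −log10 of p and q. The header says that q was not calculated although the deposited −log10 q column is filled, so q was used to rank peaks within a list. A minimum −log10 q and a minimum fold were also applied to both lists as alternatives. Apart from these cuts, scores and folds were not compared across lists. The header name of the cKO input holds 2 numbers, and pooling of inputs is not stated in these sources, nor is the tool behind the annotation tables.

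Annotation starts, 1 bp higher than in the lists, were shifted to join them. The bracketed transcript of a class can differ from the named one, so names were paired through a map of transcripts to genes built from both tables. RefSeq spans (GRCm38.p6) gave biotypes, hosts and coverage for 21778 coding genes. Another 118 coding spans were left out because they lay on unplaced or mitochondrial names or before 3 Mb of an autosome. Overlap needed 1 bp, and a gene was marked with at least 1 peak over its body. Local background was (pileup + 1)/fold − 1. Python 3.11.15, pandas 2.3.3, numpy 2.4.6, scipy 1.17.1 and matplotlib 3.10.9 were used, and the overlap functions were checked on simulated data.

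The members and gene lists were chosen with earlier results of these data known. Small noncoding RNAs, a further list, were counted apart. Named were list members with an exon 1 of 1 peak or with lower cKO coverage, the 5 members per library with the largest −log10 q, the greatest width or the most peaks per name, the 5 strongest WT members without cKO overlap, and their hosts. Other genes are said to be chosen after their values were seen. With ties at 3 peaks, only the leading names per library are given. Alternatives were a minimum −log10 q of 5, a minimum fold of 4, a cKO list cut to as many peaks or as much covered length as the WT list, 50% reciprocal overlap, peaks wholly inside the host, and members without multi-exon names. Promoter windows on chromosome 18 were not used here. Single genes withheld from this text are not reported here.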

Additional observations from a re-analysis of the deposited data

How the results depend on the processing

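Cutting the cKO list to as many peaks, or as much covered length, as in the WT list moved most values, since it removes cKO peaks by its construction. The cKO members then numbered 151 and 13 (460 as deposited), with median widths of 699 and 1441 bp. The share of WT members overlapped by cKO peaks became 52.1% and 11.6%, and the share of cKO members overlapped by WT peaks 59.6% and 92.3%. Listed intronless genes marked in cKO fell to 7 and 2, those higher in cKO to 2 and 1, and at the covered length 76.9% of cKO members were nested. A fold of at least 4 gave 73.0% of WT members overlapped and a median cKO width of 444.5 bp. A −log10 q of at least 5 gave 30.2% of cKO members overlapped. With 50% reciprocal overlap the shares were 30.2% for WT and 15.4% for cKO members. Leaving out names with a multi-exon transcript, or asking for peaks wholly inside the host, changed no value by more than its counting interval, or no count by more than 1.5 times. No paired analysis was possible because each genotype has 1 ChIP library and the labels give no replicate numbers. Depth limits an unmarked gene to "no peak called", and the genotypes' libraries and the genotypes themselves cannot be told apart.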

Other observations

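Gm11400, a pseudogene inside Sfi1, carried the member with the highest local background, at 49.0 tags, with a pileup of 82 and a fold of 1.66 in WT, and no cKO peak overlapped it. The highest local background at any cKO member was 15.0 tags. Among the noncoding RNA members, C130071C03Rik had 2 peaks in WT, of 301 and 363 bp, and 1 in cKO of 590 bp, and 2610203C20Rik had 464 bp in WT and 577 bp in cKO. BC002059 had 191 bp in WT and 967 bp in cKO. The predicted coding gene 4930546H06Rik, inside Has1, had the largest −log10 q of that kind in cKO at 31.8 and no exon 1 of 1 peak in WT. These names were chosen after their values were seen.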
